A study of Mus musculus with 12 samples.

Results

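The 9 genes described here set or report the balance between the epithelial and the mesenchymal state of cells in mouse lung tumors and normal mouse lung. They were chosen by name, and all 9 were found among the 30399 genes of the table: Cdh1, Cdh2, Vim, Zeb1, Zeb2, Snai1, Snai2, Twist1 and Twist2. The data are poly-A RNA sequencing of 5 normal lungs and 7 tumors from mice in which lung cancer was started by CRISPR/Cas9 mutagenesis without a viral vector, Cas9 being a nuclease that cuts chosen genes. The labels give the tissue (normal lung or tumor) and do not give strain, age, sex, the targeted genes or, for the normal lungs, whether the animals had received any agent. Tumors are numbered here in the order of listing. Titles of tumors 3 and 4 share the number 159 and those of tumors 5, 6 and 7 share the number 201, so 7 tumors carry 4 distinct numbers and may not be independent. Titles of tumors 1 and 7 hold a word for trachea, those of tumors 3, 4, 5 and 6 a word for lung, and that of tumor 2 neither. Nothing in the labels says how separate the samples of a group were, and p-values measure the spread between these samples only.

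Epithelial cells adhere to each other through E-cadherin, the product of Cdh1, whose tail is tied to actin by catenins. In epithelial to mesenchymal transition, transcription factors of the Snail (Snai1, Snai2), ZEB (Zeb1, Zeb2) and Twist families repress Cdh1 and other junction genes by binding short E-box motifs in DNA. Cells that undergo it commonly gain N-cadherin (Cdh2) and the intermediate filament vimentin (Vim). Several of these genes also act outside that transition. N-cadherin is the main cadherin of neurons, and vimentin and Zeb2 are abundant in fibroblasts, endothelium and leukocytes of normal lung.

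Reads assigned to genes totalled 11126432 to 17032234 per normal lung and 13093843 to 24217633 per tumor. Values below are normalized counts, which are reads divided by 1 size factor per sample and are not scaled by gene length. At these depths 3 reads correspond to at most 4.85 normalized counts per normal lung and 3.57 per tumor, and such floors cover counting error only. The tissue labels were checked with marker lists. The 9 neuroendocrine markers summed to 233 to 297 normalized counts per normal lung and 35670 to 140880 per tumor, and the 10 alveolar epithelium markers to 185589 to 287194 and 1887 to 5185. Tumor 7 stood apart from the other tumors in several markers. Its leukocyte (18816) and fibroblast (33636) sums lay within the normal lung range, its smooth muscle sum (9962) above every normal lung (at most 9175), and its cardiac muscle sum was 33146 against at most 3528 in any other sample.

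Tumors had lower Cdh1, Vim, Zeb2, Snai1 and Snai2 and higher Cdh2 and Twist1 than normal lung, while Zeb1 and Twist2 did not pass the test. The call rule was an adjusted p under 0.05 in limma with Benjamini-Hochberg adjustment over 23674 genes, on log2(normalized count + 1). Of the 9 members, 2 were called higher and 5 lower. Over all tested genes 31.4% were called higher and 30.1% lower, 61.5% in all, so a call in itself sets no member apart from other genes. Count tests on recovered reads left out tumor 3. In them edgeR called the same 2 members higher and the same 5 lower, against 34.9% and 26.3% of all its genes (61.2% in all). DESeq2 called the same 2 higher and 3 lower (Zeb2, Snai1 and Snai2) and gave no p for Cdh1 and Vim, against 25.2% of its genes higher and 20.4% lower (45.6% in all). In 6 members the 7 tumors lay entirely on one side of the 5 normal lungs (Cdh2 above, Cdh1, Vim, Zeb2, Snai1 and Snai2 below), a pattern seen in 38.4% of tested genes (20.1% above and 18.4% below). The median log2 fold change of the 9 members was -1.91, against 0.04 over all genes tested. In bulk tissue, fewer cells of a type and less RNA per cell cannot be told apart.

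**Figure D1:**
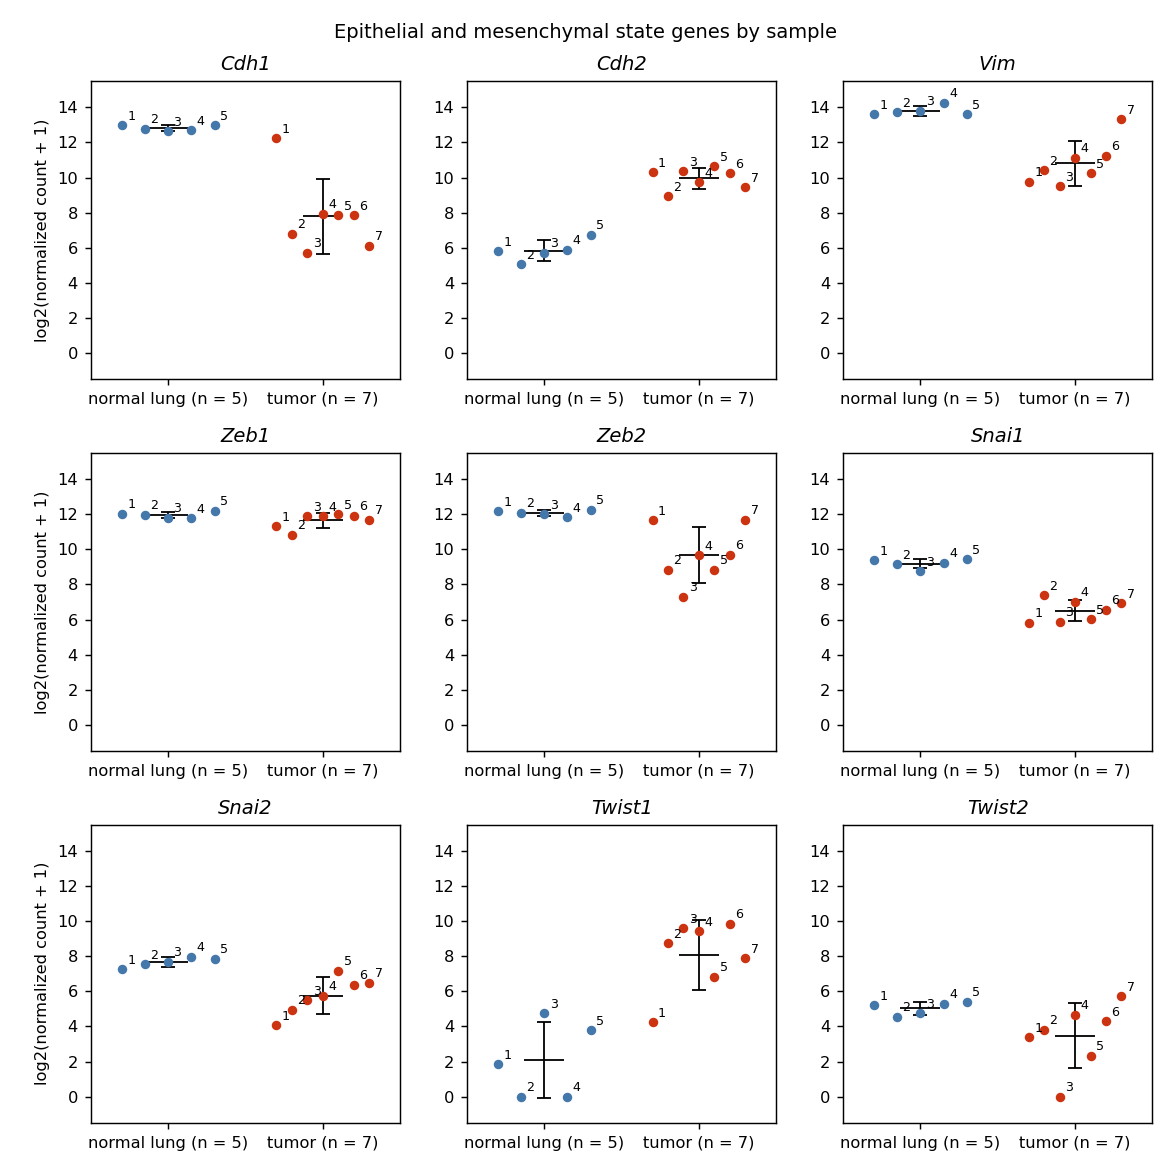
Each panel plots 1 gene as log2(normalized count + 1) for the 5 normal lungs (blue) and 7 tumors (red), with sample numbers beside the points and mean and SD as a black bar. Cdh1 stays near the normal lung level in tumor 1 only, Cdh2 is above normal lung in all tumors, Zeb1 overlaps, and Twist1 in tumor 1 lies within the normal lung range.

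Snai1 and Twist1 moved in opposite directions, and Vim fell with Snai1. Their promoters are shown because the Snail, ZEB and Twist factors bind E-boxes, written CANNTG. The sequences are the 250 bases before the annotated start, from RefSeq on GRCm38.p6, on the plus strand, and CACCTG or its reverse complement CAGGTG is in capitals where it occurs.
Snai1 (chr2:167537945-167538194): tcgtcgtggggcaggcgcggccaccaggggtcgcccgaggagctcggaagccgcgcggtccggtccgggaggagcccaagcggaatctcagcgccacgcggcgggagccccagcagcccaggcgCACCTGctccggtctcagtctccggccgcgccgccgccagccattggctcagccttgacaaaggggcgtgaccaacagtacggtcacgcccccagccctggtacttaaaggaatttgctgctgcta
Twist1 (chr12:33957421-33957670): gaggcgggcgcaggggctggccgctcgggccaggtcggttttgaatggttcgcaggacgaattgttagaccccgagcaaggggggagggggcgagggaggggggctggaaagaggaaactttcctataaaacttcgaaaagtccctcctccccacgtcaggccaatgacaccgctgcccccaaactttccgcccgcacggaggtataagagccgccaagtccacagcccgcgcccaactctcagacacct
Vim (chr2:13574061-13574310): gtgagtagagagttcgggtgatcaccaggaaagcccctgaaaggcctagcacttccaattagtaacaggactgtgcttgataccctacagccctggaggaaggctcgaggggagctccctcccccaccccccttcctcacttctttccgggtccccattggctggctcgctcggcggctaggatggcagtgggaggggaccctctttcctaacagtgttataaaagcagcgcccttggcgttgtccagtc
Promoters of 5 members were matched by symbol (Snai1, Twist1, Vim, Twist2 and Zeb2, the last with 4 annotated starts). The Snai1 window holds 1 CACCTG, which begins 126 bases before the start, and no other CANNTG. The windows of Twist1, Vim, Twist2 and Zeb2 hold no CANNTG at all. Over 32851 promoter windows of the same length, 17.2% hold CAGGTG or CACCTG on either strand and 66.2% hold some CANNTG. A match is a description of these letters only.

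Cdh1, the defining adhesion molecule of epithelium, stood at 8036, 7061, 6378, 6569 and 8042 normalized counts in the 5 normal lungs, listed in order. Tumors 1 to 7 had 4858, 110, 51.6, 244, 229, 228 and 68.5. Tumor 1 kept 67.3% of the normal lung mean, while the other 6 tumors lay between 0.714% and 3.38% of it, and no tumor reached the lowest normal lung. Cdh1 fell by 5.03 on the log2 scale (SE 0.85; limma, adjusted p = 0.000188). Without tumor 1 it was -5.77 (adjusted p = 9.84e-08). Tumor 1 was also the only tumor with Y-linked transcripts at the level of the 4 normal lungs that had them, and with that level as a covariate the fold change of Cdh1 was -3.25 (adjusted p = 0.00777). A count test on recovered reads, which left out tumor 3, the tumor with the lowest Cdh1, gave -2.81 (edgeR adjusted p = 0.0318). In limma with any 1 sample left out the fold change of Cdh1 was -5.77 to -4.68. What made the count test value smaller was not tested.

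Cdh2, the cadherin of neural and mesenchymal cells, had 54.2, 32.3, 51.7, 57.8 and 106 normalized counts in the normal lungs, while tumors 1 to 7 had 1269, 490, 1311, 849, 1586, 1205 and 690. Every tumor lay far above every normal lung. Cdh2 rose by 4.11 on the log2 scale (SE 0.33; limma, adjusted p = 1.96e-07) and was higher in 7 of 7 tumors. Tumor 1, in which Cdh1 was retained, followed tumors 5 and 3 in the order for Cdh2, so this tumor had both cadherins. The SD of Cdh2 between tumors was 0.60 log2 units, against a median of 0.49 over the 2723 genes of like mean level in all 12 samples.

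The balance of the cadherins was compared within samples as log2 Cdh2 minus log2 Cdh1. Normal lungs averaged -6.98 ± 0.55 (SD, n = 5), tumors averaged 2.16 ± 2.04 (SD, n = 7), and the shift was 9.14 (exact two-sided permutation p = 0.00253, the smallest the 792 splits can give, adjusted 0.00505 over 4 pairs). In 6 of 7 tumors Cdh2 exceeded Cdh1, by 3.47 to 25.4 times in normalized counts. In tumor 1 Cdh2 was 0.261 of Cdh1. Per kilobase of annotated exon, Cdh1 averaged 1578 normalized counts in normal lung against 7.48 for Cdh2. In tumor 1 the same scale gave 1062 for Cdh1 and 157 for Cdh2.

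Vim, the intermediate filament that marks mesenchymal cells, had 12458, 13420, 14289, 19688 and 12424 normalized counts in normal lung. Tumors had 866, 1382, 728, 2247, 1204, 2441 and 10320. All tumors were below all normal lungs, but tumor 7 reached 71.4% of the normal lung mean and the other tumors 5.03% to 16.9%. Vim fell by 2.99 on the log2 scale (SE 0.52; limma, adjusted p = 0.000225), and without tumor 7 it was -3.41 (adjusted p = 5.50e-07). On recovered reads, without tumor 3, the tumor with the lowest Vim, it was -2.12 (edgeR adjusted p = 0.00818). In limma with any 1 sample left out it was -3.41 to -2.77. Cdh2 and Vim, both used as mesenchymal markers, therefore changed in opposite directions.

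Zeb1, a repressor of Cdh1, was at nearly the same level in both tissues. It had 4204, 3988, 3584, 3484 and 4724 normalized counts in the normal lungs, against 2542, 1827, 3748, 3777, 4066, 3869 and 3324 in tumors 1 to 7. Tumors 3, 4, 5 and 6 lay inside the normal lung range and tumors 1, 2 and 7 below it. The log2 fold change of -0.31 (SE 0.20, limma adjusted p = 0.181) did not pass the threshold and stayed negative under every alternative tried. The annotated exons of Zeb1 share 1.93% of their bases with the antisense gene Gm10125, whose reads cannot be told apart without strand.

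Zeb2, its paralog and a factor of neural crest, endothelial and myeloid cells, had 4626, 4335, 4089, 3628 and 4871 normalized counts in the normal lungs. Tumors 1 to 7 had 3271, 455, 156, 808, 454, 828 and 3279. The trachea-titled tumors 1 and 7 kept 75.9% and 76.1% of the normal lung mean, and the other 5 tumors 3.61% to 19.2%. Zeb2 fell by 2.40 on the log2 scale (SE 0.63; limma, adjusted p = 0.00467). With Y-linked expression as a covariate it was -1.64 and did not pass (adjusted p = 0.102). Without tumors 1 and 7 it was -3.20 (adjusted p = 1.21e-05). On recovered reads of all samples but tumor 3, the tumor with the lowest Zeb2, it was -1.40 (edgeR adjusted p = 0.0413).

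The ZEB genes were nearly equal in each normal lung in normalized counts, which are not scaled by gene length. The within-sample log2 difference of Zeb1 minus Zeb2 was -0.11 ± 0.06 (SD, n = 5). In tumors the difference was 1.98 ± 1.71 (SD, n = 7) and ran from -0.36 in tumor 1 to 4.58 in tumor 3. The shift of 2.09 missed the threshold after adjustment (exact two-sided permutation p = 0.0404, adjusted 0.0539). It passed without tumor 1 (2.48, adjusted 0.00577), without tumor 7 (2.41, adjusted 0.0346) and without both (2.95, adjusted 0.0106). Per kilobase of annotated exon, Zeb1 averaged 322 ± 80.4 normalized counts in tumors (SD, n = 7), the highest mean of the 6 transcription factors there, followed by Twist1 at 278 ± 214, a difference within their spread. Zeb2 (66.3 ± 67.9), Snai1 (60.4 ± 26.1) and Snai2 (32.2 ± 21.4) came next on this scale and overlapped, and Twist2 was lowest at 5.47 ± 5.46. In normal lung the order was Zeb1 (389 ± 48.8), Snai1 (365 ± 63.7), Zeb2 (216 ± 24.2), Snai2 (102 ± 19.3), Twist2 (10.3 ± 2.57) and Twist1 (5.05 ± 6.85), where the first pair and the last pair differed by less than their spread. These orders depend on the annotated exon length, which was 10266 bases for Zeb1 and 19942 for Zeb2.

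**Figure D2:**
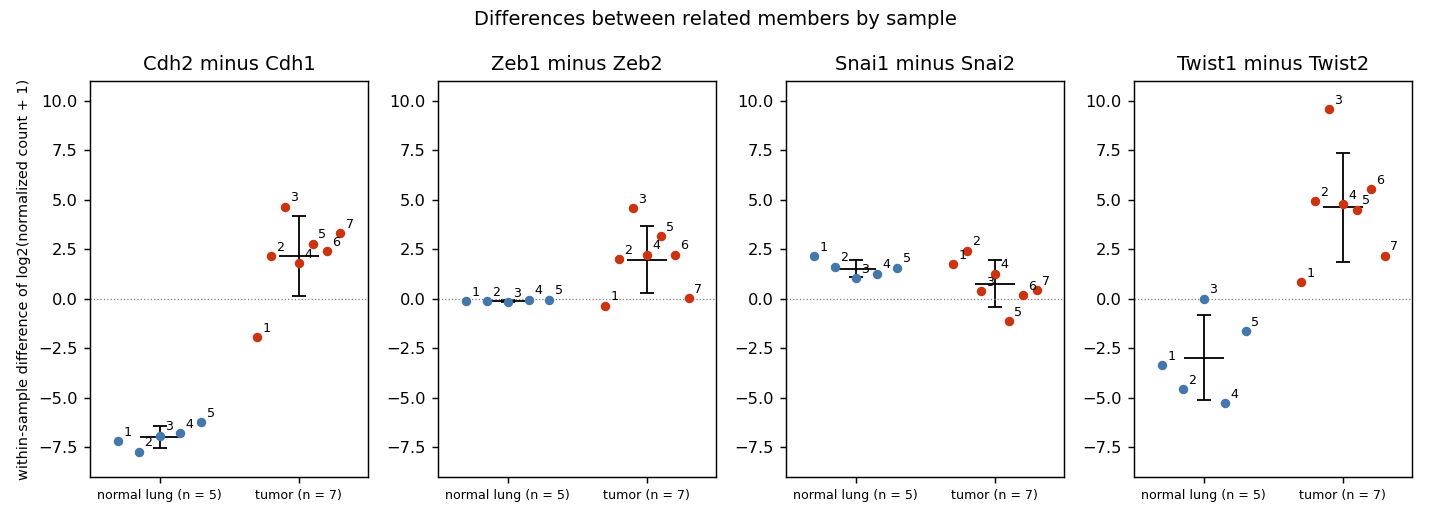
Each panel plots the within-sample difference of log2(normalized count + 1) between related genes, for 5 normal lungs (blue) and 7 tumors (red), with mean and SD in black. Cdh2 minus Cdh1 and Twist1 minus Twist2 do not overlap between groups, and Zeb1 minus Zeb2 leaves the normal lung level in tumors 2 to 6.

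Snai1, which encodes the Snail repressor, had 667, 573, 428, 601 and 691 normalized counts in the normal lungs. Tumors 1 to 7 had 55.1, 166, 57.5, 129, 63.9, 93.7 and 120. All 7 tumors lay below all normal lungs, at 9.30% to 28.0% of their mean. Snai1 fell by 2.68 on the log2 scale (SE 0.29; limma, adjusted p = 4.28e-06). Its spread between tumors, 0.62 log2 units, was close to the median of 0.55 over genes of like mean level in all 12 samples.

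Snai2, which encodes Slug, had 151, 187.1, 207, 251 and 231 normalized counts in the normal lungs. Tumors 1 to 7 had 15.8, 29.8, 43.6, 53.0, 143, 82.2 and 88.4. Tumor 5 came nearest to normal lung, at 69.7% of its mean, and tumor 1 was lowest, at 7.71%. Snai2 fell by 1.91 on the log2 scale (SE 0.45; limma, adjusted p = 0.00236). The decreases of the Snail genes were not shown to be unequal. Snai1 minus Snai2 shifted by -0.77 log2 units, from 1.52 ± 0.41 (SD, n = 5) to 0.76 ± 1.17 (SD, n = 7), with an exact two-sided permutation p of 0.189 (adjusted 0.189).

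Twist1, a basic helix-loop-helix factor of embryonic mesoderm and neural crest, was the only one of the 6 transcription factors called higher in tumors. It had 2.58, 0, 25.8, 0 and 12.6 normalized counts in normal lung, of which 3 rest on at most 2 reads. Tumors had 17.7, 425, 765, 685, 112, 927 and 238. Tumor 1 lay inside the normal lung range and the other 6 tumors above it. Twist1 rose by 6.01 on the log2 scale (SE 1.06; limma, adjusted p = 0.000269), and its size depends on the pseudocount because normal lung values are low (7.44 with a pseudocount of 0.1, 4.99 with 4). It was 3.57 with Y-linked expression as a covariate (adjusted p = 0.00972).

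Twist2, its close paralog, did not follow. It had 36.1, 22.6, 25.8, 38.1 and 41.4 normalized counts in the normal lungs. Tumors 1 to 7 had 9.50, 13.1, 0, 24.2, 4.04, 18.9 and 51.9. Tumor 7 was above every normal lung, tumor 4 within their range and the other 5 tumors below. The log2 fold change of -1.58 (SE 0.77, limma adjusted p = 0.0913) did not pass, and it did pass without tumor 7 (-1.96, adjusted p = 0.0277), without tumors 1 and 7 (-2.02, adjusted p = 0.0351) and with same-numbered tumors averaged (-1.14, adjusted p = 0.0246). The antisense gene Gm29100 overlaps 46.5% of the annotated exon bases of Twist2, which makes this count uncertain. Within samples, Twist1 minus Twist2 went from -2.97 ± 2.16 (SD, n = 5) to 4.62 ± 2.77 (SD, n = 7), a shift of 7.59 (exact two-sided permutation p = 0.00253, adjusted 0.00505).

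Vim, Zeb2 and Twist2 are expressed by stromal and blood cells, so marker lists were read beside them. Leukocyte markers (9 genes, all called lower) summed to 11247 to 19793 normalized counts per normal lung and 671 to 18816 per tumor, with 2 of the 9 at 0 in tumors 2 and 3. Fibroblast markers (10 genes, 4 called lower and none higher) summed to 27326 to 41190 and 4125 to 33636. Endothelial markers (10 genes, all called lower) summed to 72085 to 83178 and 2931 to 7589. Over all tested genes limma called 30.1% lower and 31.4% higher, so the share of fibroblast markers called lower is near that of all genes. The tumors with the highest Vim were 7, 6 and 4, which also ranked as the highest 3 for leukocyte and for fibroblast markers, and tumor 3 was lowest for Vim, Zeb2, Twist2 and leukocyte markers. The part of these cells in the differences was not tested.

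Tumor 1 departed from this order. Its Zeb2 was at 75.9% of the normal lung mean while its Vim was at 5.99%. Its leukocyte markers were at 8.04%, its fibroblast markers at 13.1% (the lowest tumor) and its endothelial markers at 9.76% (the highest tumor). That endothelial sum was mostly Vwf, with 6522 of 7589 normalized counts, while Cdh5 was 123 in tumor 1, the lowest tumor. In tumor 7 Zeb2 at 76.1% stood beside Vim at 71.4%, leukocyte markers at 126% and fibroblast markers at 106%. The Cdh1 of tumor 1, at 67.3%, stood beside summed alveolar epithelium markers at 1.16% and summed airway epithelium markers at 3.98% of the normal lung mean. In normal lung the airway sum rests largely on Scgb1a1 (mean 126212), and the 6 airway markers went different ways. Of them 4 were called lower and 1 higher (Ccdc39), against 30.1% and 31.4% of all tested genes. Bpifa1 was 3082 in tumor 1, above the 31.2 to 2759 of normal lung.

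**Figure D3:**
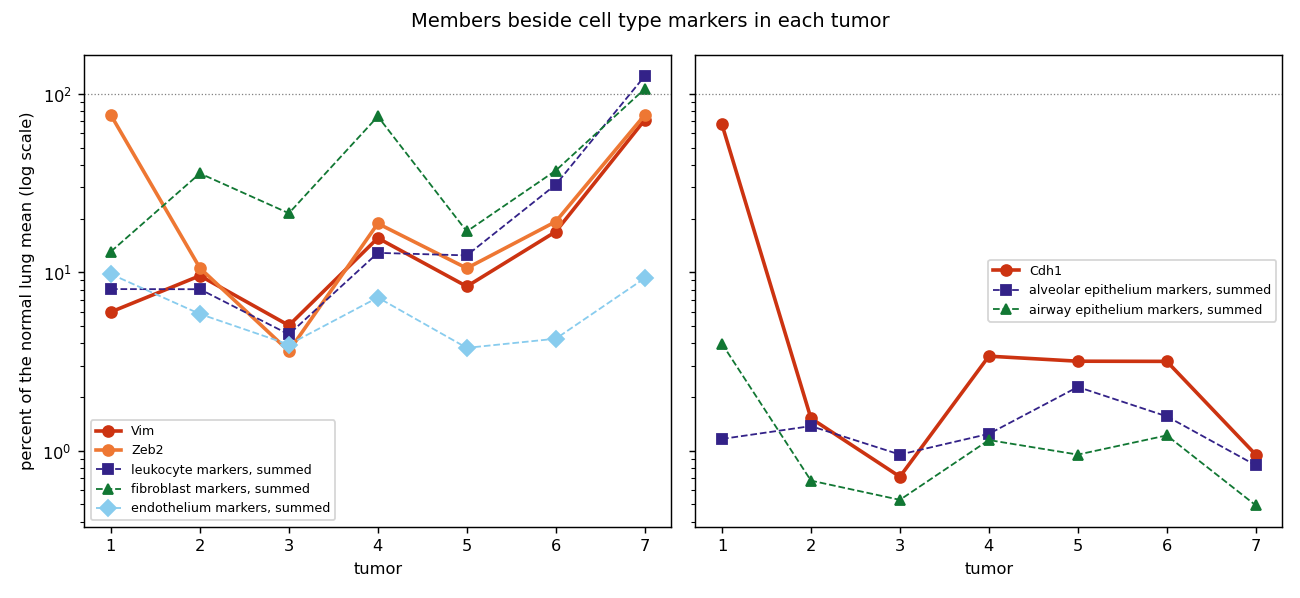
Values in each of the 7 tumors are plotted as percent of the normal lung mean on a log scale, with members as solid lines and summed marker lists as dashed lines. Vim and the leukocyte markers are highest in tumors 7, 6 and 4, and Zeb2 is high in tumors 1 and 7. Cdh1 in tumor 1 is far above the summed lung epithelium markers there, from which single airway markers can differ.

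In all 9 members the spread between tumors was larger than the median of genes of like level. Level here is the mean log2 value over all 12 samples, not over the tumors. For a member lower in tumors, the matched genes can thus have a higher level in tumors than the member. The median SD of matched genes differed with level, from 0.36 for Zeb1 to 0.95 for Twist2. The spread at equal level in tumors was not tested. The SD over tumors was 2.16 log2 units for Cdh1, larger than in 99.5% of the 2893 genes within 0.5 log2 units of its mean level. For Zeb2 it was 1.59 (larger than in 98.5% of 2112 such genes) and for Vim 1.29 (97.1% of 490). Snai1 (56.6%), Cdh2 (63.2%), Zeb1 (64.0%) and Snai2 (67.9%) were nearer to the middle, and Twist1 (88.04%) and Twist2 (87.6%) lay between. Tumors that share a title number were close in some members and far apart in others. Zeb1 was 3748 in tumor 3 and 3777 in tumor 4, where Zeb2 was 156 and 808, and Cdh1 was 229 in tumor 5 and 228 in tumor 6, while Vim ran from 1204 to 10320 in tumors 5, 6 and 7. Over all tested genes the consensus correlation of same-numbered tumors, estimated with limma, was 0.304.

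The genes with the most similar pattern over the 12 samples were found by the root mean square difference of mean-centred log2 values, over 16518 genes with a mean log2 value of at least 4. For Cdh1 they were Tmprss4 (0.42), Tspan1 (0.47) and Ap1m2 (0.47), the last a subunit of the epithelial clathrin adaptor. For Cdh2 they were Smarca1 (0.34), AC132253.6 (0.34) and Sdk1 (0.35), for Vim Gm38317 (0.24), Zcchc24 (0.26) and Serpinb1a (0.29), and for Zeb2 Galnt6 (0.25), Fgd4 (0.32) and Egfr (0.39). For Zeb1 they were Arfgap3 (0.17), Lrrc27 (0.17) and Bud13 (0.18). Snai1 was nearest to Mdfi (0.29), Emcn (0.31) and Cyth3 (0.35), and Snai2 to Cd200 (0.30), Manea (0.38) and Ccdc8 (0.38). The pattern of Twist1 had no close match, its nearest being Shank1 (1.12), Isl1 (1.15) and Lrrc4b (1.18), and Twist2 was nearest to Itga5 (0.54), Slc25a34 (0.54) and Vit (0.54). Twist1 had only 0 to 16 reads per normal lung, and counting error at such levels can enlarge its difference from any gene.

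Classical cadherins other than the members moved in both directions. Of the 13 others tested, 4 were called higher and 3 lower, shares close to the 31.4% and 30.1% of all tested genes, and the median log2 fold change was 0.53. With Cdh1 and Cdh2 the counts were 5 higher and 4 lower of 15. DESeq2 called 2 of these lower and gave no p for Cdh1. The others called higher were Cdh4, Cdh20, Cdh22 and Cdh24, several of them known from the nervous system. Cdh20 rose from 3.59 ± 3.08 (SD, n = 5) to 1440 ± 2109 normalized counts (SD, n = 7), with 6156 in tumor 1 and 396 to 1379 in the others. Cdh22 changed by 5.66 (SE 0.36) and Cdh24 by 5.37 (SE 0.23) on the log2 scale. Cdh5, the cadherin of endothelium, fell by 5.26 (SE 0.43, limma adjusted p = 2.25e-07), and Cdh11, that of mesenchymal cells, fell by 3.44 (SE 0.64, limma adjusted p = 0.000418). Cdh10 was also called lower, at 7.55 and 1.44 normalized counts, where few reads were counted.

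Catenins, which couple cadherins to the cytoskeleton, split by type. Of 7 tested, 2 were higher and 4 lower, against 31.4% and 30.1% of all tested genes. The share of higher genes is near that of all genes. The neural forms rose: Ctnna2, alpha-N-catenin, from 7.10 ± 5.84 (SD, n = 5) to 6603 ± 2165 normalized counts (SD, n = 7; limma adjusted p = 6.60e-10), and Ctnnd2, delta-catenin, from 429 ± 138 to 3163 ± 949. The widely expressed forms fell, with log2 fold changes of -2.19 for Ctnna1 (SE 0.23), -2.40 for Ctnnd1 (SE 0.19), -1.55 for Jup (SE 0.18) and -1.30 for Ctnnb1 (SE 0.23). The change was present in tumor 1 as well, with 6598 normalized counts of Ctnna2 against at most 16.1 in normal lung.

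**Figure D4:**
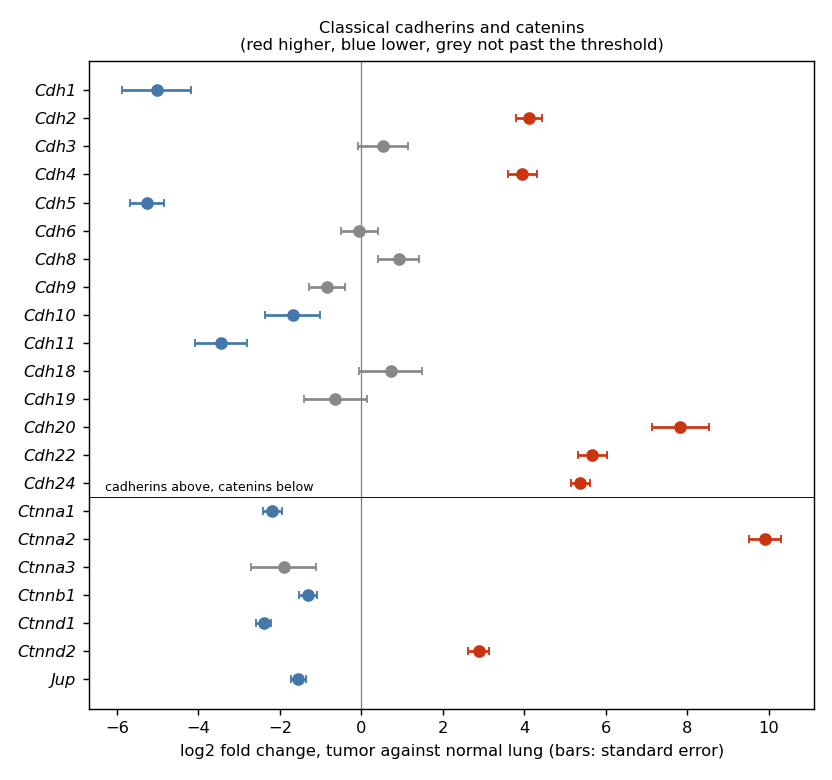
Points give the log2 fold change of tumor against normal lung for 15 classical cadherins and 7 catenins, bars the standard error, red genes called higher, blue called lower and grey neither. Cdh2, Cdh4, Cdh20, Cdh22, Cdh24, Ctnna2 and Ctnnd2 are higher, and Cdh1, Cdh5 and most widely expressed catenins lower.

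Epithelial state factors, which keep Cdh1 and epithelial splicing active, were mostly lower. Of 8 tested, 6 were lower and 0 higher, against 30.1% and 31.4% of all tested genes, with a median log2 fold change of -3.00. The count of higher genes was also 0 at an unadjusted limma p under 0.05 and in edgeR and DESeq2, and 1 with the Y-linked covariate. Grhl1 (0.27, SE 0.35) and Grhl3 (0.47, SE 0.45) did not pass. In the count tests edgeR called 3 lower and DESeq2 0. Genes filtered out or given no p, as Cdh1 and Vim were in DESeq2, were counted as not called. Not all 8 need have been tested there. The splicing regulator Esrp2 went from 736 ± 70.2 (SD, n = 5) to 104 ± 242 normalized counts (SD, n = 7), and Grhl2, a direct activator of Cdh1, from 726 ± 124 to 162 ± 248. These means hide tumor 1, which was the highest tumor for all 8 genes, with a median of 0.70 log2 units over the normal lung mean, against -3.72 to -2.80 in the other 6 tumors. Esrp1 was 3647 in tumor 1, above the 552 to 785 of normal lung, and between 0 and 66.5 in the other tumors.

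Epithelial junction genes gave a like picture. Of 20 tested, 14 were lower and 1 higher (Dsc2, a desmosomal cadherin, 3.26, SE 1.17, limma adjusted p = 0.0270, and in 7 of 24 alternatives no gene of this list was called higher). Over all tested genes limma called 30.1% lower and 31.4% higher. DESeq2 called 7 of this list lower, with genes given no p counted as not called. Ocln and Cldn3 of tight junctions, Pkp2 of desmosomes, and Crb3 and Pard6b of the apical polarity complexes were among those that fell, Pard6b by 4.20 (SE 0.31). Tumor 1 was the highest tumor in 17 of the 20 and had at least 50% of the normal lung mean in 15, against 2 to 5 genes in each other tumor. Epcam, an adhesion molecule of simple epithelia, was 5610 normalized counts in tumor 1, 193 to 799 in the others and 830 to 1436 in normal lung, and its log2 fold change of -0.69 (SE 0.63, limma adjusted p = 0.359) did not pass.

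Mesenchymal genes did not rise. Of 19 tested, 0 were higher and 10 lower in limma, against 31.4% and 30.1% of all tested genes. The median log2 fold change of the list was -1.63, and 0 of the 19 were higher at an unadjusted limma p under 0.05. The count tests edgeR and DESeq2 each called 0 higher and 5 lower, with genes given no p counted as not called. Sparc fell by 2.61 (SE 0.47) and Axl, a receptor kinase, had a log2 fold change of -2.26 (SE 0.56), while the fibrillar collagen genes Col1a1 (0.72, SE 0.62) and Col3a1 (-0.38, SE 0.61) and the matrix gene Fn1 (-0.36, SE 0.46) did not pass. Tumor 7 was the highest tumor for all 19 genes, with a median of 1.02 log2 units over the normal lung mean. The other tumors had medians from -2.87 in tumor 3 to -0.53 in tumor 4, beside fibroblast marker sums of 6761 and 23580. Tumors 1 and 5 had lower fibroblast sums (4125 and 5348) and medians of -2.06 and -1.73. The fibroblast and mesenchymal lists share Col1a1, Col1a2, Col3a1 and Pdgfrb, and the smooth muscle and mesenchymal lists share Acta2 and Tagln. The part of such cells in these values was not tested.

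**Figure D5:**
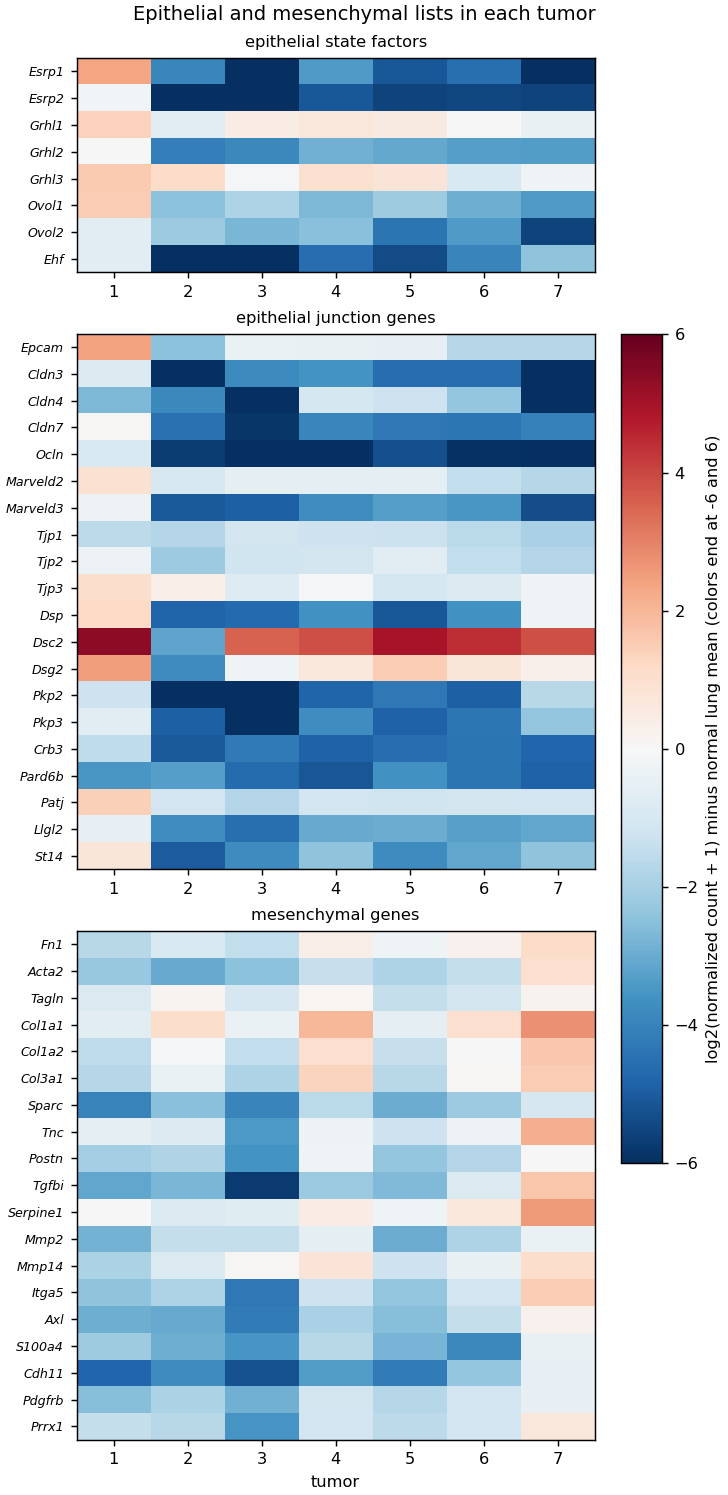
Colors give log2(normalized count + 1) minus the normal lung mean for each gene of 3 lists (rows) in tumors 1 to 7 (columns), with red above and blue below normal lung. Tumor 1 is the highest column in most rows of the epithelial lists, and tumor 7 is the highest throughout the mesenchymal list. Some junction genes, such as Pard6b (-3.47) and Cldn4 (-2.67), are well below normal lung in tumor 1.

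Partners of the repressors were mostly higher. Of 12 tested cofactors 9 were higher and 1 lower, against 31.4% and 30.1% of all tested genes, with a median log2 fold change of 1.04. Rcor2, a CoREST protein, changed most, from 33.6 ± 9.38 (SD, n = 5) to 1403 ± 560 normalized counts (SD, n = 7), and the histone demethylase gene Kdm1a (1.19, SE 0.25), the deacetylase genes Hdac1 (1.14, SE 0.17) and Hdac2 (1.22, SE 0.15) and the methyltransferase gene Ehmt2 (1.28, SE 0.13) also rose. Ajuba, which encodes a LIM protein that binds Snail, fell by 4.20 (SE 0.27, limma adjusted p = 2.89e-08). Among E proteins, the dimer partners of Twist, and their Id inhibitors, 4 of 7 were higher and 1 lower: Tcf3 (1.42, SE 0.21), Tcf4 (1.43, SE 0.44), Tcf12 (0.62, SE 0.14) and Id4 (2.91, SE 0.47) rose, and Id3 was called lower (-1.41, SE 0.56, limma adjusted p = 0.0429), though no gene of this list was in 8 of 24 alternatives. Genes for turnover of the Snail and ZEB proteins had 3 of 9 higher (Gsk3b, Fbxo11 and the ubiquitin ligase gene Fbxo45, the last by 1.57, SE 0.19) and 1 lower (Lats2, at under 10.4 normalized counts in every sample). This share of higher genes is near the 31.4% of all tested genes, and the count was 5 with equal totals, without tumor 2, without tumor 7 and without tumors 1 and 7. Lats2 was not called in edgeR.

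The other type III intermediate filament genes and nestin went both ways. Besides Vim 5 were tested, of which 2 were higher and 2 lower, against 31.4% and 30.1% of all tested genes. Nes, nestin, fell by 4.14 (SE 0.57) and the muscle gene Des by 2.39 (SE 0.66), while Prph, the peripherin of peripheral neurons, rose from 12.8 ± 7.26 (SD, n = 5) to 935 ± 571 normalized counts (SD, n = 7), and Sync rose by 1.79 (SE 0.26) on the log2 scale. Prph ranged from 52.4 to 1574 over the tumors and lay above all normal lungs.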

How the data were processed

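Poly-A RNA was sequenced from 5 normal lungs and 7 tumors. The deposited table holds normalized counts, a signal made by the authors from read counts, and the submitters' processing notes name featureCounts, DESeq2 and the build GRCm39. The aligner, annotation and use of strand are not given in the sources used here. Per the file header, columns carry sample titles. In each column 100% of values were whole multiples of 1 step (tolerance 0.001), which gave back reads and totals. Count tests used 11 columns and left out tumor 3, whose step is close to 1.

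Symbols came from GENCODE M21, with 29982 of 30399 identifiers matched, as did exon lengths (GRCm38). Genes with a mean of at least 1 (23674) were fitted with limma 3.58.1 (trend) on log2(value + 1), with Benjamini-Hochberg adjustment. On simulated data for this comparison 175 of 200 changed genes were recovered among 23374, and 11 of 186 limma calls were false. There edgeR made 6 false calls of 180 and DESeq2 23 of 201. The simulation had 1 dispersion for all genes, independent samples and few changed genes, unlike these data, so the rates need not hold here. Paired genes were compared by exact two-sided permutation of samples. Alternatives were other pseudocounts, filters and scalings, same-numbered tumors averaged or blocked, a Y-linked covariate, samples left out, and edgeR 4.0.16 and DESeq2 1.42.0 on recovered reads, which called 11205 of 18308 genes (61.2%) and 13540 of 29661 (45.6%).

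The 9 members, the 9 pathway lists and the 9 marker lists were chosen with earlier results of these data known. All members were named, and from each list up to 3 called genes with the largest rise or fall and any needed to describe the list. Nearest patterns were the 3 genes with the smallest difference for each member. Listed genes Cdh15, Elf3, Foxc2, Fbxl14, Synm, Itgam and Actc1 were not analysed here.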

Additional observations from a re-analysis of the deposited data

Results flagged for a closer look

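Of 44 groups of values tested for a sample far from the others, 2 held one, where chance gives about 1 in 20, or 2.2. Cdh1 in tumor 1, at 12.25 on the log2 scale, lay far above the other tumors, at 5.72 to 7.94. The summed smooth muscle markers of tumor 7, at 13.28 on the log2 scale, lay far above the other tumors, at 9.89 to 11.10.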

How the results depend on the processing

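Of 214 member fold changes under alternatives, 210 kept their direction and side of the threshold. The others were Zeb2 with the Y-linked covariate and Twist2 under 3 settings, given with those genes. Members called lower were 5 to 6 and called higher 2 to 2 when 1 sample was left out. DESeq2 called 3 members lower and gave no p for Cdh1 and Vim. Without tumors 1 and 7, Zeb1 minus Zeb2 shifted by 2.95. With 1 sample left out the shift was 1.65 to 2.48 for Zeb1 minus Zeb2, 8.73 to 9.82 for Cdh2 minus Cdh1, -1.05 to -0.45 for Snai1 minus Snai2 and 6.76 to 8.33 for Twist1 minus Twist2. Scaling to equal totals moved the median log2 fold change of all genes from 0.04 to 0.24. No paired analysis was possible because normal lungs and tumors share no replicate numbers in the labels. Depth limits Twist1 in normal lung and Twist2, which rest on few reads, and 7 tumors with 4 title numbers limit all tests.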
